A study of Homo sapiens with 4 samples.

Results

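The genes described here encode metalloproteases and their inhibitors: matrix metalloproteases (MMP), ADAM proteins, ADAMTS proteases and tissue inhibitors of metalloproteases (TIMP). These families were chosen with earlier results of these data known. Their genes were taken by symbol, with every probe set whose platform annotation names 1 gene only, a rule that uses no measured value. This gave 140 of 41930 probe sets, for 64 of 18304 genes: 22 MMP genes (43 probe sets), 20 ADAM genes (50 probe sets), 18 ADAMTS genes (38 probe sets) and 4 TIMP genes (9 probe sets). ADAM5 and ADAM6 are transcribed pseudogenes in RefSeq, and the other 62 genes are protein-coding. The samples were 2 arrays of U87 cells, an established human glioma line, with knockdown of QK and transduction with miR-20a, and 2 arrays of QK-knockdown U87 cells transduced with miR-NT, a scrambled microRNA with no intended target. All 4 samples thus carried the QK knockdown, and cells without it were not analysed here. The labels do not say how QK was knocked down, whether the cells were 1 clone, or whether a group's arrays stem from different cultures, and the tests therefore measure the spread between these arrays only. The comparison asks which of these transcripts differ when miR-20a is added to cells with QK knocked down.

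Metalloproteases hold a zinc ion in the active site and are made as inactive precursors. MMPs cut collagens, laminins and other matrix proteins. ADAMs sit in the cell membrane and release the outer parts of receptors, adhesion molecules and growth factor precursors, while ADAMTS proteases are secreted and cut proteoglycans and procollagens. TIMPs block the active site of most MMPs, and TIMP3 in particular also blocks several ADAMs and ADAMTS proteases. In glioma these enzymes are studied for the part they play in invasion through brain matrix.

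A microRNA pairs with its target mRNAs mainly through its seed, bases 2 to 8 from the 5′ end. The MIR20A gene, on chromosome 13, gives 2 mature arms in RefSeq (GRCh38.p14), and the labels do not name the arm that was supplied. They are shown here with the seed in capitals, beside miR-17-5p, which has the same seed as miR-20a-5p.
hsa-miR-20a-5p: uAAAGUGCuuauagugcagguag
hsa-miR-20a-3p: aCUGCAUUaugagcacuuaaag
hsa-miR-17-5p: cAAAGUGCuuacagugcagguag
In all, 8 mature human microRNAs of the table share the seed of miR-20a-5p. The level of the mature microRNA was not measured on these arrays.

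Promoters were examined for what the genes share apart from their names. The 250 bases before the RefSeq gene start (GRCh38.p14) are shown for ADAM10, the gene that passed the test below, for MMP10 and MMP7, members of a run of MMP genes on chromosome 11 whose measured differences had opposite signs, and for TIMP1. Capitals mark 3 motifs, searched on both strands: TGACTCA (the AP-1 element), TATAAA (the TATA box) and GGGCGG (the GC box). None of these motifs overlap one another in the 4 sequences.
ADAM10, chr15:58749708-58749957, minus strand: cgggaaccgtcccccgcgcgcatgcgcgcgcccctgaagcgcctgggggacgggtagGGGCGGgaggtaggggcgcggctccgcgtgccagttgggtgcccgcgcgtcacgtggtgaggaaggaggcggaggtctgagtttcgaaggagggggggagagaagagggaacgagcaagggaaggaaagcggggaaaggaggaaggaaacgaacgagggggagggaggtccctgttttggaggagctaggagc
MMP10, chr11:102780629-102780878, minus strand: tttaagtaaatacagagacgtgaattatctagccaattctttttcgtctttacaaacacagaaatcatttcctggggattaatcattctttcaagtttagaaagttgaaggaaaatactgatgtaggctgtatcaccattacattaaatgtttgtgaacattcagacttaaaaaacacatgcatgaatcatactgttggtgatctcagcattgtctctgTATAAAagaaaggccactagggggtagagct
MMP7, chr11:102530748-102530997, minus strand: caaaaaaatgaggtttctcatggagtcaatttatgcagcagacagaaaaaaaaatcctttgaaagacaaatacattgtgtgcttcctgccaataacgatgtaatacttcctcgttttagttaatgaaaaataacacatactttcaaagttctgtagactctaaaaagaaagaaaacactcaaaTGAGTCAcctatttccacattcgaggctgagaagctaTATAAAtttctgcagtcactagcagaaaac
TIMP1, chrX:47582186-47582435, plus strand: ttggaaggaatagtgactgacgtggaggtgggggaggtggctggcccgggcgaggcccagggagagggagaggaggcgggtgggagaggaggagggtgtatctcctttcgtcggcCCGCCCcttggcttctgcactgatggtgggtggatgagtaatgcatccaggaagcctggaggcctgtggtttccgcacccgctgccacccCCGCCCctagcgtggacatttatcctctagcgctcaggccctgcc
The ADAM10 stretch is 68.4% G and C and holds 1 GC box, which starts 193 bases before the gene start, and no TATAAA. MMP10 is 34.4% G and C, with a TATA box 31 bases before the start. MMP7 is 33.6% G and C, with a TATA box 30 bases and an AP-1 element 67 bases before the start. TIMP1 is 64.8% G and C, with GC boxes 135 and 45 bases before the start.

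Levels are on a log2 scale, so a difference of 1 is 2-fold, and levels are not set against each other between probe sets. The array medians lay between 6.97 and 7.01, and arrays correlated at 0.995 within miR-20a, 0.996 within miR-NT and 0.991 to 0.994 across the groups. QKI, the gene of QK, was at 9.53 and 9.38 on the miR-20a arrays, against 9.18 and 9.38 on the miR-NT arrays, and the knockdown itself cannot be checked without cells that lack it. Of the markers known from mesenchymal glioma cells, VIM lay between 14.63 and 14.70 on the 4 arrays, CD44 between 12.43 and 12.71, FN1 between 13.58 and 13.94 and NES between 7.98 and 8.31. Among epithelial markers EPCAM lay between 4.56 and 4.79, CDH1 between 4.999 and 5.124 and KRT5 between 7.03 and 7.34. Among endothelial markers CDH5 lay between 4.76 and 4.79, VWF between 6.69 and 7.07 and PECAM1 between 8.60 and 8.78. The data hold no detection calls, so none of these markers can be called absent. The blood markers PTPRC and CD3E lay between 6.34 and 6.99 and between 7.71 and 8.08. Of 13 marker genes, CHI3L1, a secreted glycoprotein of mesenchymal glioma, passed the test: it was at 12.44 and 12.32 on the miR-20a arrays, against 13.49 and 13.51 on the miR-NT arrays, a change of -1.12 (limma adjusted p = 0.011). The groups did not overlap in 2 of the 13 that were higher, CD44 (0.18) and CDH5 (0.02), against 25.5% of all genes. Only 4 of the 13 CD44 probe sets were higher. They also did not overlap in 5 that were lower, against 27% of all genes. These 5 were CHI3L1, FN1 (-0.26), NES (-0.21), the blood marker CD3E (-0.28) and the epithelial marker KRT5 (-0.22). ACTB control probes, a sign of RNA quality, read higher at the 3′ than at the 5′ end by 0.52 and 0.46 on the miR-20a arrays, against 0.20 and 0.35 on the miR-NT arrays. Both measures moved with the groups, and their part in the results below was not tested.

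ADAM10 was the single gene of the 64 that passed the test, and it was higher in miR-20a cells by both of its probe sets. In the fit over all probe sets (limma, Benjamini-Hochberg adjusted p under 0.05), 2 of the 140 rose and 0 fell, against 0.136% of all probe sets called, 0.119% higher and 0.0167% lower. With 1 probe set for each gene, 1 of 64 genes rose and 0 fell, against 0.426% of all genes called, 0.366% higher and 0.0601% lower. Of the 64 genes, 9 were higher with an unadjusted p under 0.05, against 12.6% of all genes, and 9 lower, against 9.24%. The groups did not overlap in 12 genes that were higher, against 25.5% of all genes, and in 21 that were lower, against 27%. The mean was higher in 24 of the 64 genes, against 47% of all genes. At an unadjusted p under 0.05 the fit gave 15 probe sets higher and 15 lower, together 30 of 140 or 21.4%, against 17.9% of all probe sets, which is near the background. The median log2 change was -0.05 over the 140 probe sets and -0.02 over all probe sets. The groups did not overlap in 25 probe sets that were higher in miR-20a cells, against 21.7% of all probe sets, and in 40 that were lower, against 27.2% of all. The number of arrays limits the precision: with 2 against 2, the smallest p of an exact permutation test is 0.333.

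ADAM10 is the membrane protease that cuts Notch receptors, the amyloid precursor protein and N-cadherin close to the cell surface. The first of its probe sets was at 10.22 and 10.14 on the miR-20a arrays, against 8.85 and 8.89 on the miR-NT arrays. The second was at 10.31 and 10.18 on the miR-20a arrays, against 9.22 and 9.11 on the miR-NT arrays. Both probe sets were thus higher on each miR-20a array than on each miR-NT array, by more than the spread within a group. The first rose by 1.31 ± 0.09 log2 units (SE), which is 2.48-fold with a 95% interval of 2.13 to 2.87 (limma adjusted p = 0.024). The second rose by 1.08 ± 0.10 log2 units (SE), which is 2.12-fold with an interval of 1.80 to 2.49 (limma adjusted p = 0.027). In the fit with 1 probe set for each gene the adjusted p was 0.016 (limma). The array maker marks the second as a probe set that may also match other transcripts. The calls were lost without either miR-NT array, while the changes stayed about as large: without miR-NT replicate 1 the changes were 1.29 and 1.14 (limma adjusted p = 0.377 for each), and without miR-NT replicate 2 they were 1.32 and 1.03 (limma adjusted p = 0.304 for each), and no probe set in the whole table passed in either case. In these fits the spread comes from the 2 arrays of the other group, and the lone array is assumed to vary like them. Without miR-20a replicate 1 the second probe set had an adjusted p of 0.054 (limma).

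**Figure D1:**
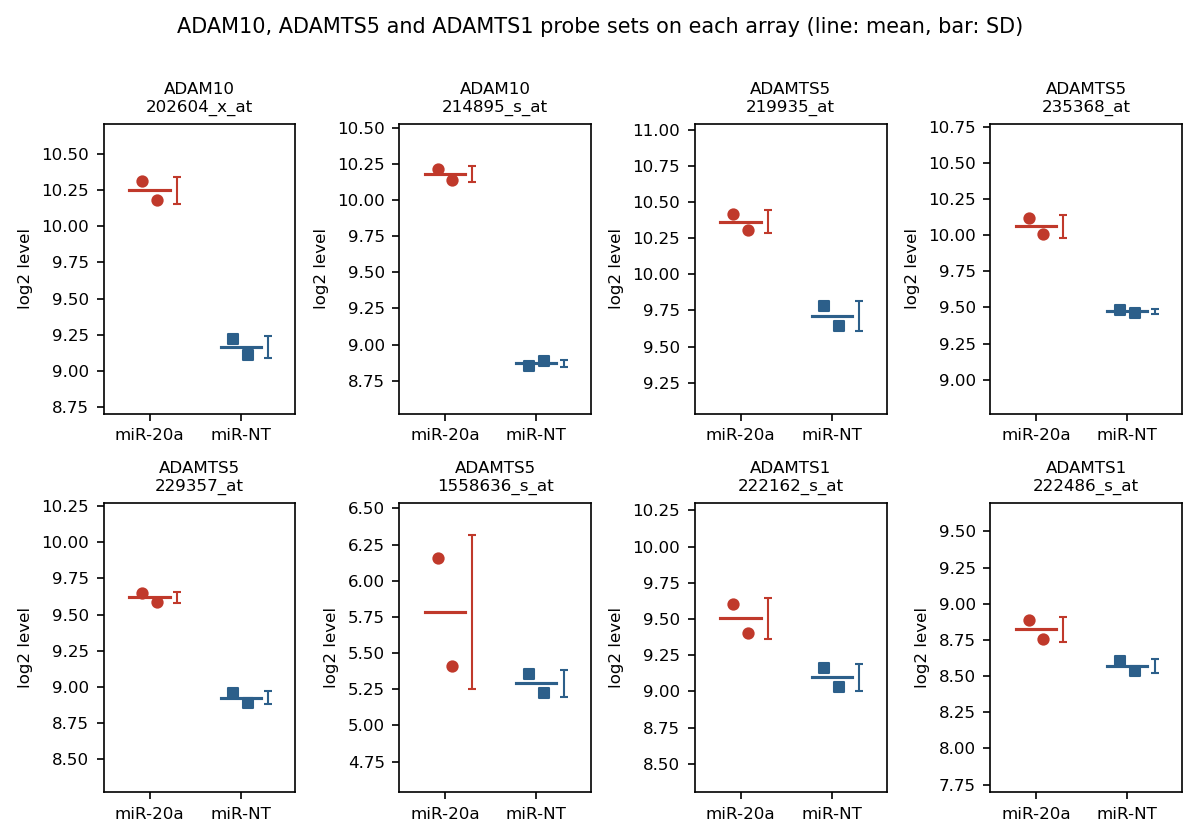
Log2 level (y axis, a span of 2 units in every panel) of each ADAM10, ADAMTS5 and ADAMTS1 probe set on the 2 miR-20a arrays (circles) and the 2 miR-NT arrays (squares), with the group mean (line) and SD (bar). In all 8 panels both miR-20a arrays lie above both miR-NT arrays, as in 21.7% of all probe sets. The gap is 1.08 and 1.31 in the ADAM10 panels.

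The other ADAMs with an active protease site had smaller differences, none past the adjusted threshold. With low levels left out, and with a trended, robust variance, ADAM9 and ADAM12 passed in the fit of 1 probe set for each gene. In these settings 1239 and 1212 of all genes passed, against 78 in the main fit. ADAM17, the enzyme that releases TNF and several EGF-family ligands, was at 8.29 and 8.36 on the miR-20a arrays, against 8.06 and 8.11 on the miR-NT arrays. Its change was 0.24 with a 95% interval of 0.03 to 0.45 (limma adjusted p = 0.24), and its other probe sets were at 0.18 and 0.13. In all 3 ADAM17 probe sets each miR-20a array lay above each miR-NT array, as in 21.7% of all probe sets. ADAM9, a membrane protease found in many tumours, was at 10.70 and 10.54 on the miR-20a arrays, against 10.21 and 10.31 on the miR-NT arrays, a change of 0.36 ± 0.10 (SE, limma adjusted p = 0.17). A further ADAM9 probe set was 0.23 higher, and the last, near the bottom of the scale at 5.29 against 5.44, was 0.16 lower in miR-20a cells.

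ADAM12, known from muscle and from tumour stroma, had probe sets that went both ways. The probe set with the highest level was at 9.50 and 9.30 on the miR-20a arrays, against 9.08 and 8.94 on the miR-NT arrays, a change of 0.39 ± 0.11 (SE, limma adjusted p = 0.17). Another ADAM12 probe set had a change of 0.27, while the remaining probe sets had changes of -0.24 and -0.07. The groups did not overlap in any of the 4, while 21.7% of all probe sets were higher and 27.2% lower without overlap. Changes of both signs also occurred for ADAM8, a protease known from white blood cells, at 0.10 and -0.43, and for ADAM33, known from airway smooth muscle, at 0.16 and -0.33. ADAM15, an ADAM with an integrin-binding motif, was lower by both probe sets. One was at 8.13 and 8.39 on the miR-20a arrays, against 8.68 and 8.70 on the miR-NT arrays, a change of -0.43 ± 0.11 (SE, limma adjusted p = 0.16), and the other changed by -0.17. ADAM19 was at -0.01, with an interval of -0.34 to 0.32.

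Among the 12 ADAM genes with an active site, 2 of 30 probe sets passed the adjusted threshold, both of ADAM10, against 0.136% of all probe sets. At an unadjusted p under 0.05 there were 6 higher, against 9.46% of all probe sets, and 3 lower, against 8.4%. The 8 ADAM genes without an active site, or known as pseudogenes, include ADAM22 and ADAM23, which act as adhesion receptors in neurons. Of their 20 probe sets 0 passed the adjusted threshold (limma), and at an unadjusted p under 0.05 there were 1 higher and 1 lower, set against the same shares. Both belong to ADAM23, the only member gene with such probe sets in both directions: 0.23 for one and -0.36 for the other. Medians were 0.04 for the probe sets of the active group and 0.01 for those of the other group.

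ADAMTS5, a main aggrecanase, came closest to the threshold after ADAM10. One probe set was at 9.65 and 9.59 on the miR-20a arrays, against 8.96 and 8.89 on the miR-NT arrays. Another was at 10.42 and 10.31 on the miR-20a arrays, against 9.78 and 9.64 on the miR-NT arrays. A further one was at 10.12 and 10.01 on the miR-20a arrays, against 9.48 and 9.46 on the miR-NT arrays. In each of these the groups were apart by more than the spread within a group. The changes were 0.69 ± 0.09, 0.65 ± 0.10 and 0.59 ± 0.09 log2 units (SE), and the first of these is 1.62-fold. Their adjusted p-values were 0.0685, 0.10 and 0.10 (limma), so no call was made. All 3 passed when probe sets of low level were left out (limma adjusted p of 0.023, 0.039 and 0.040) and with a trended, robust variance (0.0096, 0.017 and 0.017). In these settings 334 and 957 of all probe sets passed, against 57 in the main fit. The fourth ADAMTS5 probe set was at 6.16 and 5.41 on the miR-20a arrays, against 5.35 and 5.23 on the miR-NT arrays. Its change of 0.49 rested on miR-20a replicate 1, without which it was 0.12.

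ADAMTS1, another proteoglycan-cutting enzyme with antiangiogenic activity, was at 9.61 and 9.41 on the miR-20a arrays, against 9.16 and 9.03 on the miR-NT arrays. This change of 0.41 ± 0.11 (SE) had a limma adjusted p of 0.16, and the other probe set had a change of 0.25. ADAMTS1 passed in the same 2 settings, in the fit of 1 probe set for each gene. ADAMTS4, the other main aggrecanase, was at 7.32 and 7.80 on the miR-20a arrays, against 7.46 and 7.57 on the miR-NT arrays. The groups overlapped, and the change was 0.05 with an interval of -0.34 to 0.43. Of the 17 probe sets for the 7 proteoglycan-cutting ADAMTS genes, an unadjusted p under 0.05 was reached by 5 higher and 0 lower ones, against 9.46% of all probe sets higher and 8.4% lower. These 5 came from ADAMTS5 and ADAMTS1 alone. ADAMTS8 had changes of -0.23, -0.07 and -0.02.

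Among the ADAMTS enzymes that remove the amino-terminal propeptide of procollagens, ADAMTS2 was at 8.17 and 8.15 on the miR-20a arrays, against 7.88 and 7.93 on the miR-NT arrays. Its change was 0.25 ± 0.09 (SE, limma adjusted p = 0.22) by this probe set and 0.06 by the other. ADAMTS14 was 0.20 higher, with an interval of -0.05 to 0.45. ADAMTS10, which is tied to fibrillin microfibrils, was lower by both of its probe sets. One was at 6.71 and 6.78 on the miR-20a arrays, against 7.11 and 7.15 on the miR-NT arrays, with a change of -0.38 ± 0.09 (SE, limma adjusted p = 0.14). The other had a change of -0.34. In the remaining group of 8 ADAMTS genes, these were the only probe sets of 17 at an unadjusted p under 0.05, 2 lower against 8.4% of all probe sets. The mean was higher in 2 of the 17 and lower in 15, while it was higher in 44.7% of all probe sets.

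**Figure D2:**
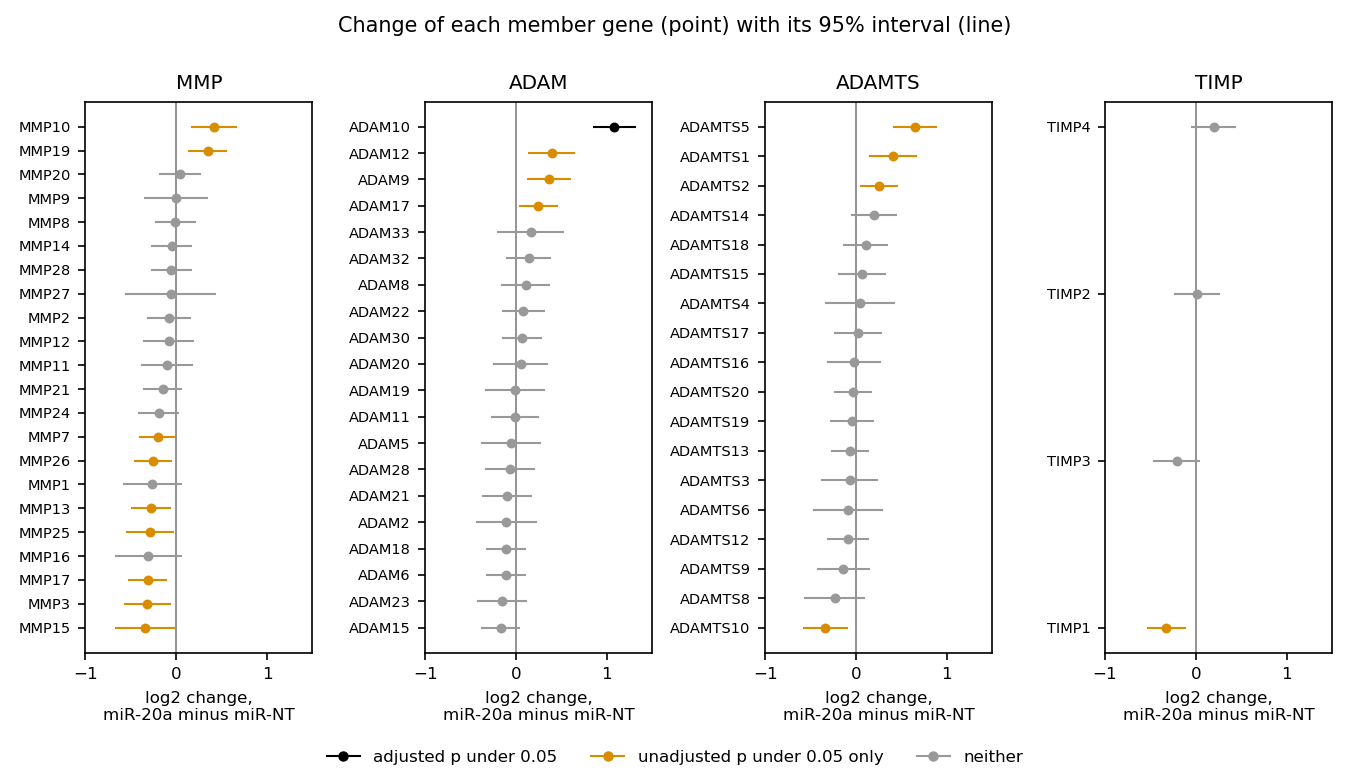
Log2 change (x axis, miR-20a minus miR-NT) of the 64 genes by class, with 1 probe set for each gene, the one with the highest mean over all arrays; points are estimates and lines are 95% intervals from limma. ADAM10 at 1.08 is the single point past the adjusted threshold, and 18 of the 22 MMP genes lie left of 0.

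No MMP passed the test, and most had a lower mean in miR-20a cells. Of 43 MMP probe sets 36 were lower and 7 higher, while over all probe sets 44.7% were higher. At an unadjusted p under 0.05, 8 were lower, against 8.4% of all probe sets, and 2 higher, against 9.46%, and the median log2 change was -0.11. With low levels left out, MMP17 and MMP19 passed in the fit of 1 probe set for each gene, and MMP19 also with a trended, robust variance. In these settings 1239 and 1212 of all genes passed. The differences were small: 31 of the 43 were within 0.25 log2 units of 0. Across all probe sets the log2 change varied with level. The median was 0.01 above the middle level and -0.04 below it, and for the probe sets of all 4 classes it was -0.02 above and -0.06 below. The part of level in the MMP values was not tested.

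The gelatinases, which cut denatured collagen and type IV collagen, had groups that overlapped in the probe sets of highest level. MMP2 was at 13.39 and 13.31 on the miR-20a arrays, against 13.51 and 13.35 on the miR-NT arrays. Its change was -0.08 with an interval of -0.32 to 0.16. MMP9 was at 7.09 and 7.47 on the miR-20a arrays, against 7.18 and 7.38 on the miR-NT arrays, a change of 0.00 with an interval of -0.35 to 0.35. These intervals leave room for changes of up to 1.27-fold for MMP9.

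The stromelysins, which cut proteoglycans and activate other MMPs, went both ways. MMP10 was at 4.34 and 4.56 on the miR-20a arrays, against 4.04 and 4.02 on the miR-NT arrays, near the bottom of the scale. Its change was 0.42 ± 0.10 (SE, limma adjusted p = 0.15), and the groups did not overlap. MMP3 was at 9.62 and 9.39 on the miR-20a arrays, against 9.80 and 9.84 on the miR-NT arrays. Its change was -0.32 ± 0.11 (SE, limma adjusted p = 0.21), again without overlap. MMP11, first known from breast tumour stroma, was lower by all 4 probe sets, between -0.38 and -0.10. MMP19, which does not belong to these groups, was at 8.66 and 8.75 on the miR-20a arrays, against 8.34 and 8.37 on the miR-NT arrays. That change of 0.35 ± 0.09 (SE, limma adjusted p = 0.16) stood against -0.15 by the other MMP19 probe set.

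Among the collagenases, which cut intact fibrillar collagen, MMP13 was at 6.75 and 6.78 on the miR-20a arrays, against 7.10 and 6.99 on the miR-NT arrays. Its change was -0.27 ± 0.09 (SE, limma adjusted p = 0.21). MMP1 had a change of -0.26, with 5.01 and 4.88 on the miR-20a arrays, against 5.03 and 5.38 on the miR-NT arrays. MMP8, also a collagenase, had changes of -0.01 and 0.00 by its probe sets, with overlapping groups. The matrilysins, the smallest MMPs, were lower without overlap, as were 27.2% of all probe sets. MMP26 had a change of -0.26 (limma adjusted p = 0.21) and MMP7, at 6.55 and 6.56 on the miR-20a arrays against 6.75 and 6.78 on the miR-NT arrays, by -0.21 (limma adjusted p = 0.28).

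The membrane-bound MMPs activate other MMPs at the cell surface or cut matrix beside it. All 16 of their probe sets, for 6 genes, had a lower mean in miR-20a cells, by between 0.00 and 0.34 log2 units, and 0 passed the adjusted threshold (limma). At an unadjusted p under 0.05 there were 3 lower, in MMP15, MMP17 and MMP25, against 8.4% of all probe sets, and 0 higher, against 9.46%. MMP17 was at 7.82 and 7.77 on the miR-20a arrays, against 8.08 and 8.15 on the miR-NT arrays, a change of -0.31 ± 0.09 (SE, limma adjusted p = 0.18). MMP15 had a change of -0.34 and MMP25 of -0.29, and their other probe sets had changes of -0.11 and -0.18. MMP14, the main activator of MMP2 precursor, had 4 probe sets between -0.12 and 0.00, all with overlapping groups. Its probe set with the highest level was at 10.41 on both miR-20a arrays, against 10.53 and 10.38 on the miR-NT arrays.

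**Figure D3:**
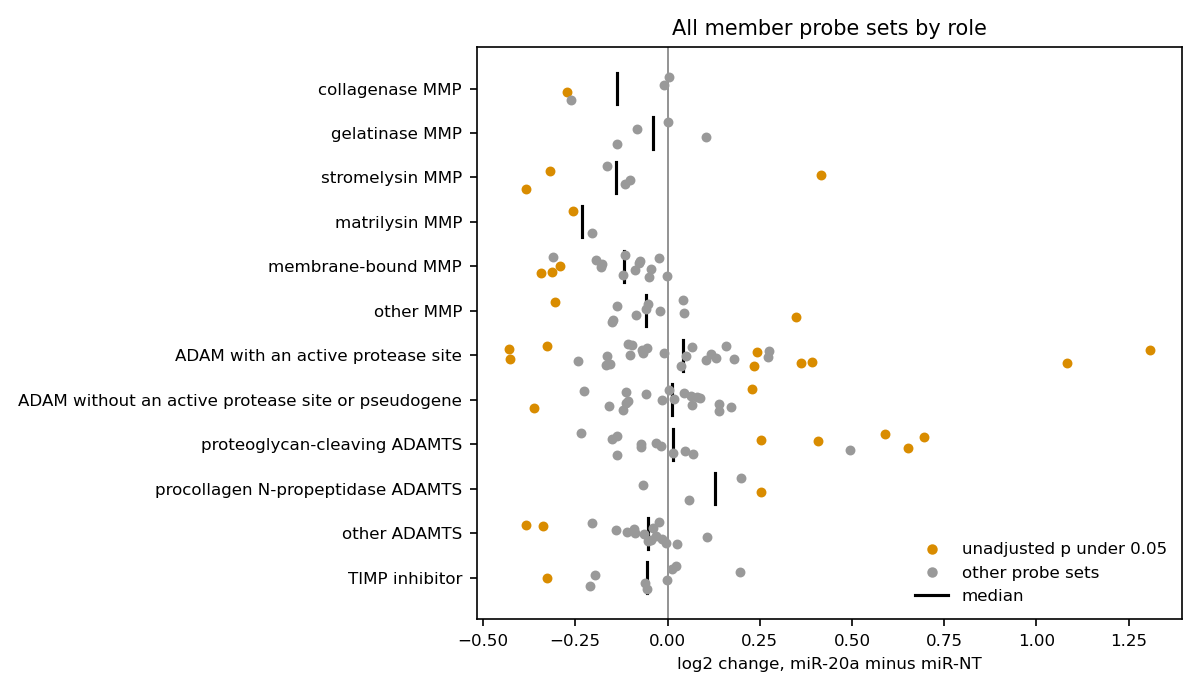
Log2 change (x axis, miR-20a minus miR-NT) of all 140 probe sets, 1 point each, in rows by role; coloured points are at an unadjusted p under 0.05 and black bars are row medians. The ADAM10 points at 1.31 and 1.08 stand furthest to the right, and all 16 membrane-bound MMP points lie at or left of 0.

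Of the 4 inhibitors TIMP1 had the lowest p. TIMP1, which inhibits most secreted MMPs and also ADAM10, was at 13.01 and 13.10 on the miR-20a arrays, against 13.39 and 13.37 on the miR-NT arrays. The groups did not overlap, and the change was -0.33 ± 0.09 log2 units (SE, limma adjusted p = 0.17). It passed with a trended, robust variance in both fits, and with low genes left out in the fit of 1 probe set for each gene. In the latter fit 1212 and 1239 of all genes passed in these settings. TIMP2, which takes part in the activation of MMP2 by MMP14, was at 11.76 and 11.63 on the miR-20a arrays, against 11.78 and 11.59 on the miR-NT arrays. Its change was 0.01, with an interval of -0.24 to 0.27, and turned to -0.16 after quantile normalization and -0.13 after cyclic loess. The other TIMP2 probe sets had changes of 0.02 and -0.20. TIMP3, which binds to the matrix, had 4 probe sets between -0.21 and 0.00. TIMP4 was at 8.78 and 8.89 on the miR-20a arrays, against 8.55 and 8.72 on the miR-NT arrays, a change of 0.20 with an interval of -0.05 to 0.44.

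**Figure D4:**
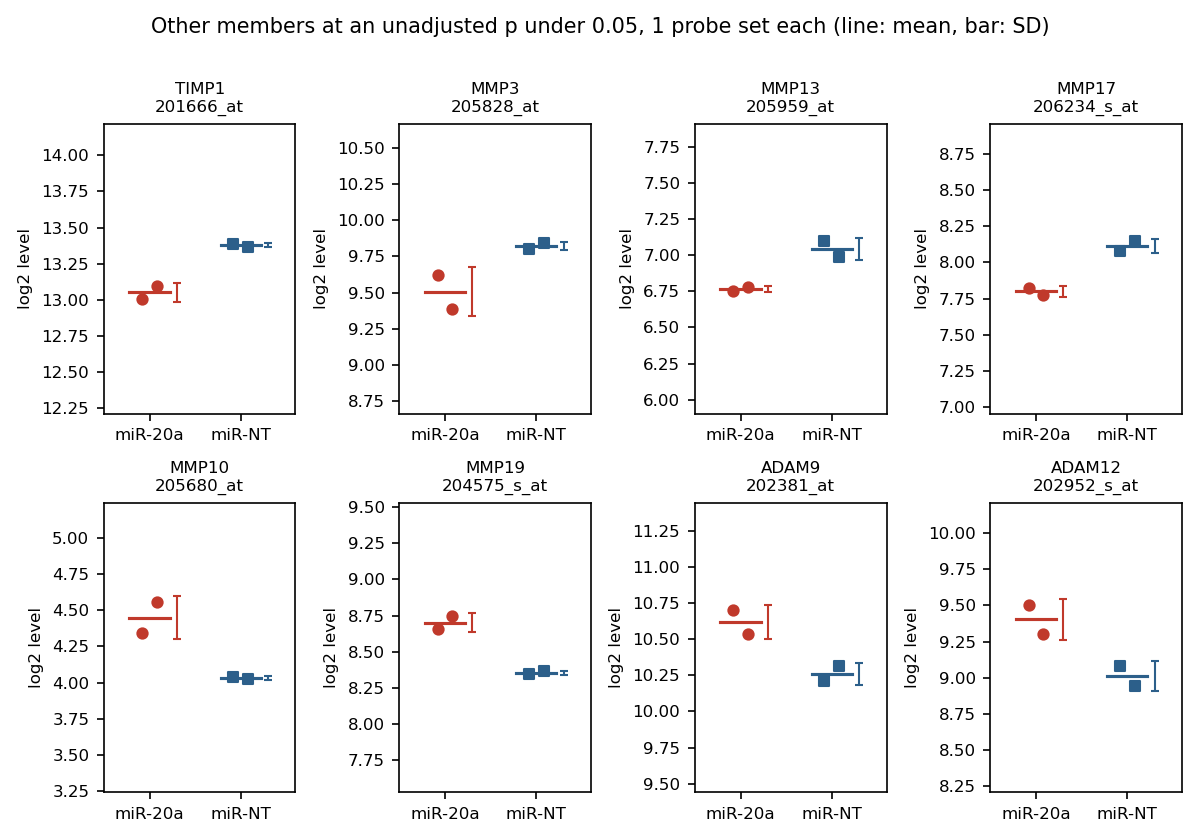
Log2 level (y axis, a span of 2 units in every panel) of 8 further genes at an unadjusted p under 0.05 on the 2 miR-20a arrays (circles) and the 2 miR-NT arrays (squares), 1 probe set each, with the group mean (line) and SD (bar). The genes were picked by hand, and the arrays of the groups do not overlap in any panel. TIMP1, MMP3, MMP13 and MMP17 are lower and MMP10, MMP19, ADAM9 and ADAM12 higher in miR-20a cells, by 0.42 log2 units at most. Not shown, though also under 0.05 in the fit of 1 probe set for each gene, are MMP7, MMP15, MMP25, MMP26 and ADAMTS10. These were lower, while ADAM17 and ADAMTS2, likewise not shown, were higher.

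Agreement between probe sets of a gene was limited. Of the 42 genes with several probe sets, 22 had changes of a single sign and 20 of both. ADAM10, ADAMTS5, ADAMTS1, ADAMTS10, ADAM15 and ADAM17 are among the genes whose probe sets all had the same sign.

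In the order of protein-coding genes in RefSeq (GRCh38.p14), ADAMTS1 and ADAMTS5 are neighbours on chromosome 21, and both had higher means in miR-20a cells, by 0.41 and 0.65. On chromosome 11, 9 MMP genes follow each other without another protein-coding gene between them: MMP7, MMP20, MMP27, MMP8, MMP10, MMP1, MMP3, MMP12 and MMP13. In miR-20a cells the mean was higher for 2 of these and lower for 7, with changes between -0.32 for MMP3 and 0.42 for MMP10. Promoters of 36 of the 64 genes were found in the RefSeq table, with 37 entries. Among the genes without an entry were MMP1, MMP2, MMP3, MMP9, MMP13, ADAMTS1 and ADAMTS5, so the motif shares do not cover them. TATAAA was in 6 of 11 MMP entries (54.5%), 0 of 11 ADAM entries and 1 of 12 ADAMTS entries, and in 10.7% of all 35116 promoters. The MMP genes with this motif had changes of both signs: 0.42 for MMP10, 0.04 for MMP20, -0.01 for MMP8, -0.15 for MMP21, -0.21 for MMP7 and -0.26 for MMP26. GGGCGG was in 10 of 12 ADAMTS entries (83.3%), in 7 of 11 ADAM entries (63.6%), in 4 of 11 MMP entries (36.4%) and in 3 of 3 TIMP entries, against 42.6% of all promoters. TGACTCA was in 1 of the 37 entries, that of MMP7, and in 4.2% of all promoters.

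No gene of 6 related lists passed the adjusted threshold, and 20 of their 77 measured genes were at an unadjusted p under 0.05 (limma), against 21.8% of all genes. At that level 12.6% of all genes were higher and 9.24% lower. Among 14 measured activators, inducers and membrane inhibitors of MMPs, 1 was higher and 4 lower at that level, with a median log2 change of -0.09. PLAU, urokinase, which starts the plasmin cascade that activates MMP precursors, averaged 11.21 ± 0.06 in miR-20a cells and 10.77 ± 0.05 in miR-NT cells (SD, n = 2 each). Its change was 0.44 by this probe set, with both probe sets higher (limma adjusted p = 0.084). LRP1, an endocytic receptor that clears MMPs and TIMPs, was at -0.43, and all 4 probe sets were lower (limma adjusted p = 0.10). A2M, the general protease trap alpha-2-macroglobulin, had a change of -0.35, and FURIN, which removes the prodomain of membrane-bound MMPs and ADAMs, -0.32.

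At an unadjusted p under 0.05, 12.6% of all genes were higher and 9.24% lower. Among 13 partners and regulators of ADAMs, 0 were higher at that level and 2 were lower. These were PRKCD, a protein kinase C, at -0.39 and TSPAN15, a tetraspanin that binds ADAM10, at -0.25 (limma adjusted p of 0.12 and 0.16). RHBDF2, which carries ADAM17 to the cell surface, was at -0.24, and SH3PXD2B, a podosome adaptor, at -0.14, with 1 of 2 probe sets lower. Among 18 measured substrates of ADAM shedding, 3 were higher and 1 lower, against the same shares of all genes. ALCAM, an adhesion molecule, was 0.37 higher, with 2 of 3 probe sets of that sign, and CDH2, N-cadherin, was 0.30 higher, with 1 of 2. SDC4, syndecan-4, was 0.21 higher. HBEGF, the heparin-binding EGF-like ligand, averaged 8.87 ± 0.03 in miR-20a cells and 9.19 ± 0.02 in miR-NT cells (SD, n = 2 each), with 3 of 4 probe sets lower and a limma adjusted p of 0.11.

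Among 13 substrates of ADAMTS proteases, 3 were higher and 1 lower at the same level, against 12.6% and 9.24% of all genes. DCN, decorin, was at -0.49, and 4 of 5 probe sets were lower (limma adjusted p = 0.084), and LUM, lumican, a related small proteoglycan, 0.56 (limma adjusted p = 0.10). VCAN, versican, a large proteoglycan cut by ADAMTS1, ADAMTS4 and ADAMTS5, was at 0.28, and all 5 probe sets were higher (limma adjusted p = 0.16), and COL2A1, a cartilage collagen, one of 0.28, with 1 of 2. Of 7 measured ADAMTS-like proteins and papilin, which lack a protease domain, 0 were higher and 2 lower, against the same shares. The lower genes were THSD4 at -0.28, with 2 of 4 probe sets of that sign, and ADAMTSL2 at -0.25. ADAMTSL1 was at -0.20, with 5 of 6 probe sets lower, and ADAMTSL4 at -0.11, with 1 of 2. Among 12 astacin and membrane metalloproteases and related genes, 1 was higher and 2 lower, again against these shares. PCOLCE, which enhances cleavage of procollagen by BMP1, was at -0.44 and MME, neprilysin, at -0.35 (limma adjusted p of 0.082 and 0.098). DPP4, a membrane dipeptidyl peptidase, was 0.39 higher with all 3 probe sets (limma adjusted p = 0.088), and MEP1B, a meprin subunit, was at -0.21.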

How the data were processed

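Total RNA (6 µg per sample, per the labels' protocols) was labelled with biotin and read on 1 single-colour Affymetrix array per sample. The authors deposited log2 levels, 1 per probe set and array. Of tools, the submitters' processing notes list affy, an R package. Not given in the sources used here are its version and how background, scaling and probe summary were handled; log base 2 was inferred from the range. Genes were named through GEO's platform annotation of the probe sets, and all 64 symbols were found in RefSeq (GRCh38.p14).

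The deposited scaling was kept and no filter was applied. For the miR-20a minus miR-NT difference, limma 3.58.1 (R 4.3.3) was run with lmFit and eBayes on all 4 arrays, with group alone as a term, over 41920 probe sets without the 10 array controls, and again over 18304 genes with the probe set of highest mean. Two-sided p-values were Benjamini-Hochberg adjusted over all features, with a threshold of 0.05. Intervals are 95% intervals from the fit, with a prior SD of 0.103 on 4.60 degrees of freedom. The fit was tested on simulated data. Alternatives were a replicate block, other scalings, a level filter, a trended, robust variance, another threshold, gene means and leaving out each array. Values were given for probe sets past the threshold, the 6 genes of smallest p in each class, 21 genes named whatever their value, the 10 genes of highest level, and up to 4 genes of each list, whose adjusted p-values come from the fit over genes. MMP8, MMP15, MMP20, MMP21, MMP25, ADAM23, CHI3L1 and the antisense and pseudogene probe sets fall outside this rule and were chosen after their values were seen. Members and lists were chosen with earlier results of these data known. The deviations of same-numbered arrays had a correlation of r = -0.12. This single value would miss a deviation shared by only some of the probe sets. It therefore cannot decide whether the numbers pair the arrays, and results with a replicate block are given below.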

Additional observations from a re-analysis of the deposited data

Results flagged for a closer look

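Outside the main measurement, each miR-20a array lay above each miR-NT array for 3 (against 21.7% of all probe sets), and below for 4 (against 27.2%), of 15 probe sets that name several genes, antisense or opposite-strand transcripts or pseudogenes of these families. The 3′ excess of the RNA controls was also larger on both miR-20a arrays. MMP24OS, the opposite-strand gene at MMP24, had log2 changes of 0.190 and 0.0822 by 2 of its 4 probe sets, while the other two were at -0.07 and -0.02. The antisense gene ADAMTS9-AS2 had a change of 0.221 by 1 of its 5 probe sets (limma adjusted p = 0.30). Of the 15 probe sets 0 passed the adjusted threshold (limma), and 1 was at an unadjusted p under 0.05. ACTB control probes read higher at the 3′ than at the 5′ end by a mean of 0.486 log2 units on the miR-20a arrays and 0.272 on the miR-NT arrays. For GAPDH control probes this averaged 0.275 on the miR-20a arrays and 0.222 on the miR-NT arrays.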

How the results depend on the processing

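The ADAM10 changes kept their direction in every setting tried, between 0.98 and 1.35 log2 units over both probe sets. Counts of probe sets and of genes past the adjusted threshold, 2 and 1 as reported, were 0 and 0 with a replicate block on the numbers in the titles, and 0 and 0 with a crossed replicate block, added after seeing the data. They were 5 and 8 with the lower 40% by level left out, where 79 member probe sets and 36 member genes were tested. In that setting 334 of all probe sets and 1239 of all genes passed. The member counts were 6 and 7 with a trended, robust variance, where 957 of all probe sets and 1212 of all genes passed. As reported, 57 of all probe sets and 78 of all genes passed. The gene count was 2 after centring each array on its median, with ADAMTS5 added, where 136 of all genes passed. At an adjusted p under 0.10 it was 3 of 64, where 904 of all 18304 genes passed. Leaving out single arrays gave 0 to 2 probe sets and 0 to 2 genes, with 19 to 28 probe sets and 12 to 27 list genes at an unadjusted p under 0.05, against 30 and 20 reported. No probe set passed in the whole table under either block or without either miR-NT array (limma; between 3231 and 7343 were at an unadjusted p under 0.05). Of 346 recomputed changes of 35 probe sets, 315 kept direction and call, 7 gained a call, 7 lost it and 17 changed sign. TIMP2 (0.01) was at -0.156 after quantile normalization and -0.130 after cyclic loess, and between -0.0815 and 0.106 without single arrays. ADAM19 (-0.01) was at 0.0225 after quantile normalization, 0.0243 after centring and 0.0320 after cyclic loess, and between -0.168 and 0.15 without single arrays. Without single arrays ADAM33 lay between -0.0695 and 0.389, ADAMTS4 between -0.194 and 0.289, MMP11 between -0.234 and 0.0310, MMP14 between -0.125 and 0.0232, MMP2 between -0.166 and 0.00203, and MMP9 between -0.188 and 0.189. Of the list genes, 0 passed as reported, but 1 did after quantile normalization, 9 with low levels left out and 10 with a trended, robust variance. The cause was not tested. Absence of detection calls and the number of arrays limit what can be said of low levels.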

Other observations

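Of the 15 related probe sets outside the rule, only that of MMP25-AS1, the antisense gene at MMP25, was at an unadjusted p under 0.05. It was at 5.73 and 5.65 on the miR-20a arrays, against 6.03 and 6.13 on the miR-NT arrays, a change of -0.39 (limma adjusted p = 0.15). Both MMP25 probe sets were also lower, by 0.29 and 0.18 log2 units. ADAM3A, a pseudogene, had changes of 0.10 and 0.21, and the probe set shared by MMP23A and MMP23B one of 0.00.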
